A study of Mus musculus with 4 samples.

Results

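Replication licensing in mouse blastocysts was described through 10 genes: the 6 subunits of the MCM2-7 helicase (Mcm2, Mcm3, Mcm4, Mcm5, Mcm6 and Mcm7), the helicase loaders Cdc6 and Cdt1, the Cdt1 inhibitor geminin (Gmnn) and the sliding clamp Pcna. They were taken by gene symbol, with the highest value used where a symbol was repeated. All 10 were listed once in each library, among 20714 symbols listed in all 4 libraries. Transcript levels (mRNA) came from 2 RNA-seq libraries of polyA RNA made by Smart-Seq2, and levels of ribosome-protected fragments (RPF), the stretches of mRNA shielded by translating ribosomes, from 2 Ribo-seq libraries of total RNA. Every library came from untreated wild-type (WT) embryos, so the only contrast was between the assays. The strain field reads C57BL/6N x PWK, whereas the treatment protocol gives C57BL/6J females, 4 weeks old, and PWK/PhJ males. The embryos were taken at the 8-cell stage and grown in KSOM medium to blastocysts, whose zona was removed in acidic Tyrode's solution. For Ribo-seq the lysis buffer held cycloheximide, which holds ribosomes on mRNA, and the lysate was digested with RNase I. These are therefore blastocysts finished in culture, of mixed cell types. The labels do not say whether replicates were separate embryo pools, so the spread between them may be technical.

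A cell may copy each stretch of its genome only once per division. In G1 the origin recognition complex (ORC), with Cdc6 and Cdt1, threads the ring of MCM2 to MCM7 onto DNA, which licenses an origin. In S phase the ring becomes the motor of the replicative helicase, geminin holds Cdt1 inactive so that no new ring is loaded, and PCNA tethers polymerases and their partners to the template. The 6 MCM proteins occupy 1 position each in the ring. Cells of the preimplantation embryo divide rapidly, and the genes of this pathway are known as targets of the E2F factors.

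Levels are given as FPKM, fragments scaled to the length of the feature and to the mapped fragments of the library. The length is shortened by a fragment length, and low values stepped as whole fragments with a mean of 200 bases in both assays. A footprint has about 28 bases. At equal footprints per base, a short coding sequence, as of Gmnn (621 bases) or Pcna (786 bases), therefore reads higher in RPF than a long one. Genes were compared within a library with this limit, which was not corrected. RNA-seq FPKM refer to whole transcripts and Ribo-seq FPKM to coding sequences, so the 2 scales cannot be set equal. In these bulk samples, fewer cells of a type and less RNA per cell cannot be told apart. Replicates ranked genes alike, with a Spearman correlation of 0.941 across 8746 genes for mRNA and 0.859 across 10048 genes for RPF; genes are not independent replicates. Steps in the low FPKM values implied 5438780 and 5157931 fragments for the RNA-seq replicates but only 533979 and 484468 for the Ribo-seq replicates. On 1000 bases, 3 fragments, the limit that a count of 0 allows, were worth 0.690 and 0.727 FPKM in RNA-seq and 7.03 and 7.74 FPKM in Ribo-seq. Trophectoderm markers were high, with Cdx2 at 264 and 319 FPKM and Krt8 at 1418 and 1382 FPKM in RPF. Of 6 oocyte, 5 granulosa, 4 sperm and 3 blood markers, none exceeded 1.92 FPKM in any library, except Prm2 at 33.7 FPKM in Ribo-seq replicate 2. The RNA-seq replicates differed in lineage markers: the 3 inner cell mass markers summed to 141 and 57.4 FPKM (Pou5f1 70.1 and 28.6 FPKM). Of the 6 trophectoderm markers, Elf5 was at 21.7 and 45.1 FPKM and Eomes at 15.5 and 32.4 FPKM in these replicates. The others were not higher in RNA-seq replicate 2: Cdx2 was at 21.6 and 21.0 FPKM and Gata3 at 127 and 112 FPKM. Krt8 was at 1078 and 838 FPKM and Krt18 at 1757 and 1754 FPKM in mRNA. In Ribo-seq the inner cell mass sum was 681 and 810 FPKM. Of the 3 primitive endoderm markers only Gata6 was above 1.36 FPKM in mRNA, with Sox17 at 0 in RNA-seq replicate 2, whereas all 3 were at 12.3 FPKM or more in RPF. The part of these differences in the values below was not tested.

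The sequences around the start codons are shown because ribosomes read them as they begin each of these proteins, and RPF is the translation readout here. Each line runs 5′ to 3′ from 12 bases before the start codon, read from GENCODE vM1 transcripts on NCBIM37, and capitals mark the base at −3, the ATG and the base at +4, counted from the A of the ATG as +1.
Mcm2: gctagcgcaGacATGGcg
Mcm3: cggagctgcGacATGGcg
Mcm4: aaccacagcAccATGTcg
Mcm5: ccaggtacaGtcATGTcg
Mcm6: ctcggcgccGccATGGac
Mcm7: tccccggcaGcgATGGcg
Cdc6: tgtgtggccAtcATGCct
Cdt1: ctttttggcGccATGGcg
Gmnn: tgtctctgaAaaATGAat
Pcna: aactccgccAccATGTtt
A purine stood at −3 in 10 of 10 members, against 85.6% of 16381 genes, and a G stood at +4 in 5 of 10, against 50.0%. Gmnn carried A at both places. Both letters of the strong consensus, a purine at −3 and G at +4, were present in Mcm2, Mcm3, Mcm6, Mcm7 and Cdt1, and 42.5% of all genes held both.

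The 6 helicase subunits lay on 5 chromosomes of NCBIM37. Mcm3 (chr1:20793055-20810359, minus strand) and Mcm6 (chr1:130228168-130256233, minus strand) were both on chromosome 1. Mcm2 was at chr6:88833469-88848774 (minus strand), Mcm4 at chr16:15623990-15637493 (minus strand), Mcm5 at chr8:77633427-77652338 (plus strand) and Mcm7 at chr5:138605811-138613650 (minus strand). Their coding sequences were of like length, from 2160 bases in Mcm7 to 2715 bases in Mcm2. Mcm7 is crowded: 385 of its exon bases, none of them coding, overlapped genes on the opposite strand, and its introns hold the microRNA genes Mir25, Mir93 and Mir106b. Smart-Seq2 does not keep the strand, so RNA-seq reads of these overlaps cannot be told apart.

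The transcripts of the 6 subunits were not equal. Among genes with a mean of at least 1 FPKM in mRNA, they lay from the 71.2 percentile (Mcm3) to the 84.5 percentile (Mcm6). The most abundant was Mcm6, at 50.3 and 40.3 FPKM in the 2 RNA-seq replicates. Mcm7 followed at 41.1 and 36.9 FPKM, and its values overlapped those of Mcm6. Mcm5 was at 29.8 and 28.4 FPKM, and lay below both in each replicate. Mcm4, at 25.8 and 24.6 FPKM, differed between replicates by less than its distance to the neighbouring subunits. Mcm2 was at 22.7 and 15.4 FPKM, and Mcm3 at 20.6 and 16.7 FPKM. The values of these last 2 overlapped, so their order was not resolved. In all, 2 of the 15 pairs of subunits overlapped in mRNA.

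The RPF of the subunits lay closer together. Mcm6 was at 94.1 and 135 FPKM and was again the highest on average. Mcm7 was at 111 and 110.5 FPKM and Mcm5 at 106 and 103 FPKM, both inside the range of Mcm6. Mcm4 was at 91.6 and 96.6 FPKM. Below it, Mcm3 was at 76.0 and 75.7 FPKM, and Mcm2 at 67.7 and 74.6 FPKM. The subunits that were lowest as mRNA were thus the lowest in RPF in both replicates. The RPF values of 3 of the 15 pairs overlapped, and each of these pairs included Mcm6.

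**Figure D1:**
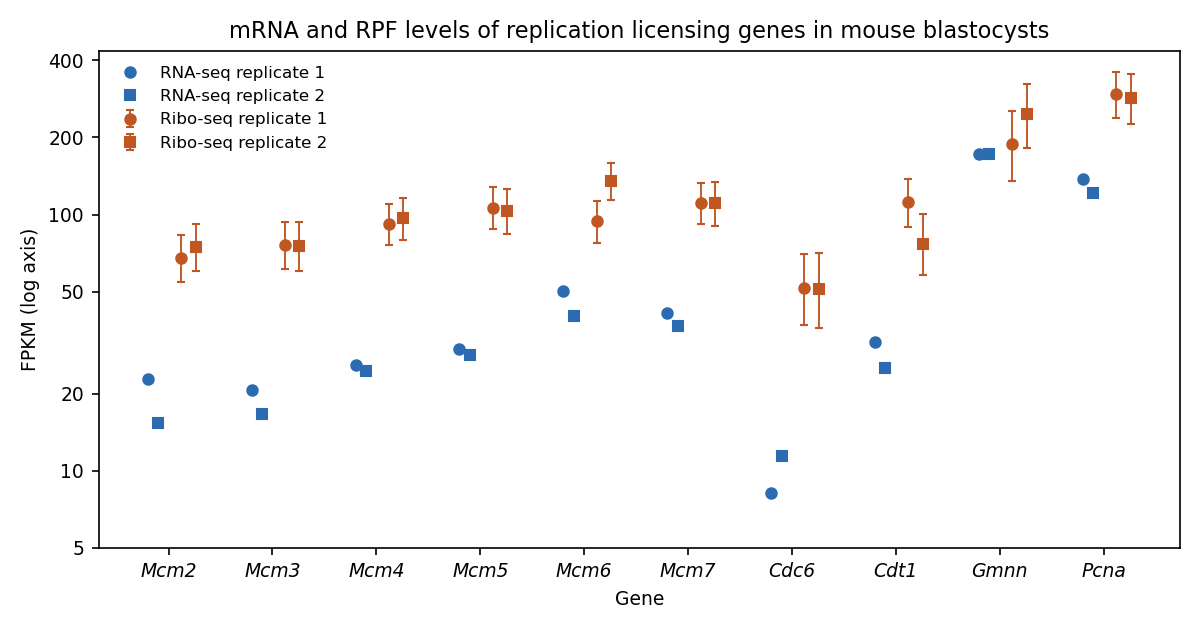
FPKM (log axis) of the 10 genes in the 2 RNA-seq libraries (blue) and the 2 Ribo-seq libraries (orange), with circles for replicate 1 and squares for replicate 2. Bars on the Ribo-seq points are exact 95% Poisson intervals from the implied footprints, for counting error only; Gmnn and Pcna stand above the other genes in both assays, and Cdc6 is the lowest in both.

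Counting error set how finely the subunits could be ordered. The FPKM implied between 90.9 footprints for Mcm2 and 117 for Mcm4 in Ribo-seq replicate 1, and between 82.1 for Mcm3 and 148 for Mcm6 in replicate 2. Mcm6 was the subunit whose replicates disagreed most: replicate 2 was 1.43 times replicate 1, with an exact 95% interval of 1.11 to 1.84. The other 5 subunits had replicate ratios from 0.967 to 1.10, each with an interval that held 1. These intervals cover counting error only, since reads without molecular identifiers are not independent molecules.

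In 5 of the 15 pairs, the interval of the RPF ratio lay below 1 in both replicates. These were Mcm2 against Mcm5, Mcm6 and Mcm7, and Mcm3 against Mcm5 and Mcm7. Mcm2 stood at 0.719 (0.540 to 0.956) of Mcm6 in replicate 1 and at 0.554 (0.422 to 0.724) in replicate 2. Mcm6 and Mcm7 were not resolved, at a ratio of 0.850 (0.651 to 1.11) and 1.22 (0.943 to 1.58). The 2 lowest subunits therefore lay below Mcm5 and Mcm7 beyond counting error, while Mcm4 to Mcm7 could not be ordered in both replicates at this depth.

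As a share of the summed FPKM of the ring, in which an equal share is 16.7%, Mcm6 made up 26.4% and 24.8% of the mRNA, and 17.2% and 22.6% of the RPF. Mcm7 made up 21.6% and 22.7% of the mRNA, and 20.3% and 18.6% of the RPF. Both were nearer to an equal share in RPF in each library. On the other side, Mcm2 rested at 11.9% and 9.47% of the mRNA and at 12.4% and 12.5% of the RPF. Mcm3 was at 10.8% and 10.3% of the mRNA, and at 13.9% and 12.7% of the RPF. Mcm4 was at 13.5% and 15.2% of the mRNA and at 16.8% and 16.2% of the RPF, nearer to an equal share in RPF. Mcm5 went the other way on average, at 15.7% and 17.5% of the mRNA and at 19.5% and 17.3% of the RPF, and its values overlapped between the assays. Shares of 1 sum depend on each other, so these 6 are not separate observations.

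**Figure D2:**
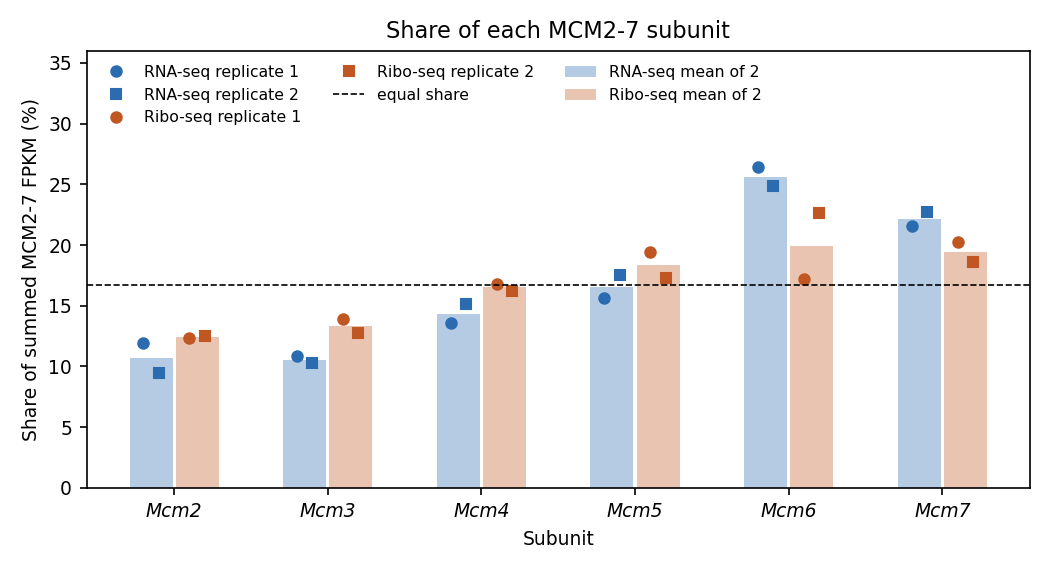
Share of each MCM2-7 subunit in the summed FPKM of the 6 subunits (%), by library. Bars are the mean of 2 replicates, points are single libraries, and the dashed line is an equal share of 16.7%; the bars of Mcm6 and Mcm7 stand further above the line in RNA-seq than in Ribo-seq, and those of Mcm2 and Mcm3 stay below it in both.

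The ratio of the highest to the lowest subunit summed this up. It was 2.44 and 2.62 in the RNA-seq replicates, and 1.64 and 1.81 in the Ribo-seq replicates. The assays did not overlap. The ratio was not tested, and an exact permutation test of 2 against 2 libraries cannot go below p = 0.333. The highest and lowest subunit differed by library: Mcm6 over Mcm3 in RNA-seq replicate 1 and over Mcm2 in replicate 2, Mcm7 over Mcm2 in Ribo-seq replicate 1, and Mcm6 over Mcm2 in replicate 2.

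Other replication complexes, at origins or at the fork, were less even in RPF. The 8 that were set beside MCM2-7 were chosen after values of these data were seen. ORC1-6, which has as many subunits as the helicase, had a highest-over-lowest ratio of 22.5 and 27.5 in RPF and 21.3 and 9.14 in mRNA. The clamp loader RFC1-5 was at 5.26 and 5.93 in RPF, against 10.9 and 9.33 in mRNA. GINS1-4, a part of the active helicase, was at 6.16 and 5.78 in RPF, and at 5.73 and 8.81 in mRNA. The widest was DNA polymerase epsilon, at 46.9 and 30.4 in RPF and 22.4 and 13.0 in mRNA. RNase H2, a trimer that removes RNA from DNA, was at 3.04 and 2.91 in RPF and, at 1.73 and 1.61, below MCM2-7 in mRNA. With fewer subunits a complex has fewer chances of an extreme value. Subunits with short coding sequences also read higher in RPF, so these ratios are a description.

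**Figure D3:**
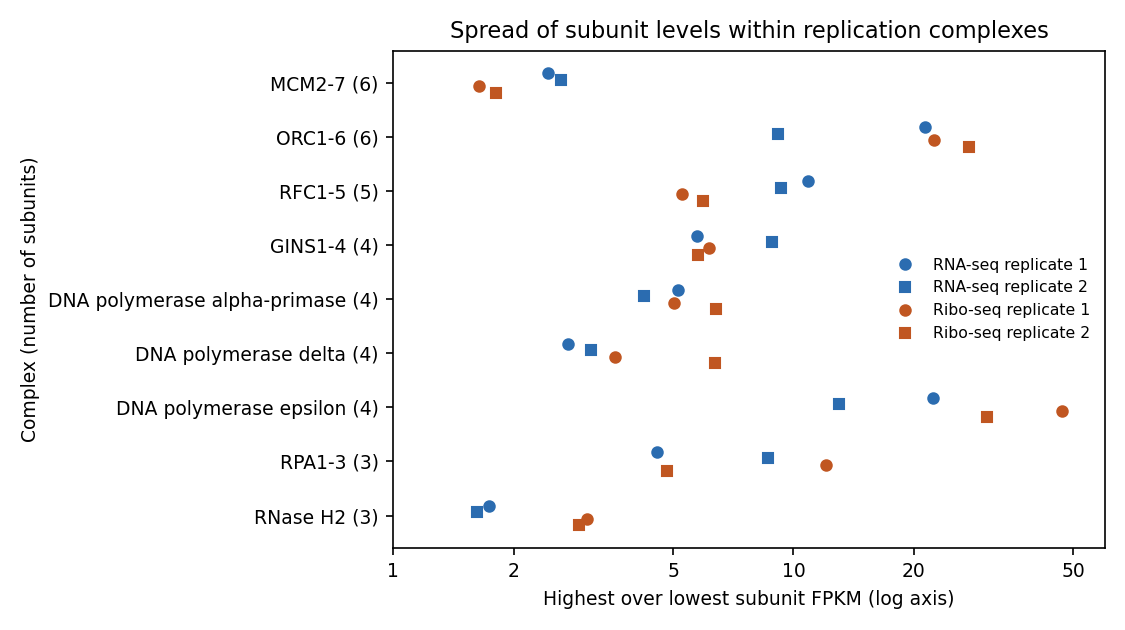
Highest over lowest subunit FPKM (log axis) in MCM2-7 and 8 other replication complexes, with the number of subunits in brackets. Each point is 1 library; the Ribo-seq points of MCM2-7, at 1.64 and 1.81, lie to the left of those of the other complexes, and in RNA-seq only RNase H2 lies further left.

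Cdc6, the ATPase that joins ORC to load the ring, was the lowest of the 10 genes in both assays. It lies at chr11:98769115-98785254 (plus strand) and has 12 exons. Its mRNA was at 8.18 and 11.5 FPKM and its RPF at 51.6 and 51.4 FPKM. The RPF replicates nearly coincided although they rested on only 41.0 and 37.0 implied footprints, and their ratio of 0.996 had a counting interval from 0.620 to 1.59. The MCM2-7 median exceeded Cdc6 by 3.40 and 2.31 times in mRNA and by 1.80 and 1.94 times in RPF.

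Cdt1, which brings the ring to ORC and Cdc6, was at the level of the helicase subunits. It lies at chr8:125091915-125097028 (plus strand) and has 10 exons. Its mRNA was at 31.9 and 25.2 FPKM, between Mcm5 and Mcm4 on average and overlapping both. Its RPF was at 112 and 77.0 FPKM, the widest relative spread between replicates among the 10 genes. The ratio of replicate 2 to replicate 1 was 0.689, with a counting interval from 0.483 to 0.976. The MCM2-7 median over Cdt1 was 0.873 and 1.05 in mRNA and 0.831 and 1.30 in RPF, on either side of 1 in each assay.

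Geminin is the smallest coding sequence of the set, 621 bases, on 7 exons at chr13:24843714-24853792 (minus strand). Its mRNA was the highest of the 10 genes, at 172 FPKM in both replicates, which ranked 480 among all symbols by mean level. Its RPF was at 188 and 247 FPKM, rank 1061. In RPF, but not in mRNA, it stood below Pcna in both replicates. The implied footprints were 42.2 and 50.3, about as few as those of Cdc6.

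Geminin and Cdt1 act as a pair, and their levels were far from equal in mRNA. Geminin exceeded Cdt1 by 5.41 and 6.83 times in mRNA, and by 1.68 and 3.21 times in RPF. Every library thus held more geminin than Cdt1 signal in FPKM, and the excess was smaller in either Ribo-seq library than in either RNA-seq library. The short coding sequence of geminin, 621 bases against 1674 in Cdt1, lifts the RPF ratio by an amount that was not tested. Relative to the MCM2-7 median, geminin was at 6.20 and 6.50 times in mRNA and at 2.03 and 2.47 times in RPF. The RPF ratio to Cdt1 moved with the replicate, since Cdt1 was lower and geminin higher in replicate 2. These ratios are a description and were not tested.

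Pcna lies at chr2:132074898-132079050 (minus strand), with 6 exons and 786 coding bases. Its mRNA was at 138 and 121 FPKM, and its RPF, the highest of the 10 genes, at 295 and 286 FPKM. The clamp exceeded the MCM2-7 median by 4.95 and 4.58 times in mRNA and by 3.18 and 2.87 times in RPF. It exceeded the median of Rfc2 to Rfc5, the small subunits of its loader, by 2.25 and 2.203 times in mRNA and by 4.90 and 3.21 times in RPF. PCNA works as a ring of identical subunits, whereas each MCM protein and each loader subunit is present once in its complex.

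From the top, the order of the levels in mRNA was Gmnn, Pcna, Mcm6, Mcm7, Mcm5, Cdt1, Mcm4, Mcm2, Mcm3 and Cdc6. Of the 9 neighbouring pairs in it, 4 overlapped between replicates: Mcm6 and Mcm7, Mcm5 and Cdt1, Cdt1 and Mcm4, and Mcm2 and Mcm3. In RPF the order was Pcna, Gmnn, Mcm6, Mcm7, Mcm5, Cdt1, Mcm4, Mcm3, Mcm2 and Cdc6, and 3 neighbouring pairs overlapped: Mcm6 and Mcm7, Mcm5 and Cdt1, and Cdt1 and Mcm4. The mean order differed between the assays in Gmnn against Pcna and in Mcm2 against Mcm3. Mcm2 and Mcm3 were not resolved in either assay. Their mRNA values overlapped, and their RPF ratio was 0.890 (0.658 to 1.20) and 0.986 (0.725 to 1.35). The RPF counting intervals of Pcna and Gmnn overlapped too. They were 237 to 361 against 135 to 253 FPKM in replicate 1, and 227 to 355 against 182 to 324 FPKM in replicate 2. The range from highest to lowest was 21.1 and 15.0 times in mRNA and 5.73 and 5.58 times in RPF.

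Similar sequences elsewhere in the genome touch some of these levels. Of the 28-base windows of each coding sequence, about the length of a footprint, 66.7% occurred at 2 or more genome places for Pcna, 46.8% for Mcm7, 27.2% for Cdc6, 9.93% for Gmnn, 7.65% for Mcm4 and 2.95% for Mcm6. Mcm2, Mcm3, Mcm5 and Cdt1 had none. The largest copy of Pcna, with 591 windows, lies at chr19:9357869-9358654 and is annotated as the pseudogene Pcna-ps2. Places on chromosomes 12 and X shared 5 and 3 windows with Pcna. The copy of Cdc6, with 555 windows, lies at chrX:8233087-8240954, at the pseudogene Gm9430. That of Mcm6, with 72 windows, lies at chr8:71144085-71144336 and overlaps the protein-coding gene Csgalnact1 and the pseudogene Gm15654. Mcm4 had a copy on chromosome 17 and Gmnn on chromosome 3. The copy of Mcm7, at chr16:53984066-53986200, has no annotated gene. No member shared a window with another coding transcript, and no window had more than 3 places. A read was kept by the authors at up to 20 places of the transcriptome, and the part of these copies in the levels was not tested.

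RPF relative to mRNA was compared as the difference of log2(FPKM + 1) between Ribo-seq and RNA-seq, after each library was centred on the median of the genes tested. The difference reads as a relative ribosome occupancy, not as a rate. Of 8327 genes with a mean of at least 1 FPKM in both assays, 554 (6.65%) had higher and 442 (5.31%) had lower RPF relative to mRNA by limma, which asked for a difference of 1 or more (log2) with an adjusted p under 0.05. All 10 members passed the level filter. By limma, 0 of the 10 were called higher and 0 lower. At the background rates, fewer than 1 call in each direction would be met among 10 genes. An unadjusted p under 0.05 was met by 2 of the 10, against 36.3% of all genes. With an intensity trend in limma 1 member, geminin, was called lower, as were 716 of the 8327 genes. The median of the members was 0.24 (log2), against −0.24 over all genes tested, and 6 of 10 were above 0, against 41.7% of all genes. After quantile normalization these medians were nearer to each other, at 0.035 and −0.056. Centring removed a shift of 1.502 (log2) between the assays, so the sign of a small difference depends on it: with no centring, 4113 genes were higher, 9 of the members among them, and 65 lower. Without RNA-seq replicate 1 or without replicate 2, limma called 0 genes, with 1293 and 1250 genes at an unadjusted p under 0.05 against 3026 here. Without Ribo-seq replicate 1 it called 1268 higher and 1987 lower, and without replicate 2 1210 higher and 1801 lower; in each of these fits the lone library of an assay is assumed to vary like the pair of the other.

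Geminin had the lowest difference of the 10. Its RPF over its mRNA was 1.09 and 1.43 when replicates were taken by number, against 1.87 to 6.30 for the other 9 genes, as deposited. The fitted difference was −1.18 ± 0.79 (log2, 95% interval, n = 2 and 2), with a limma adjusted p of 0.0712, and its place among all genes was the 20.6 percentile. It thus missed the threshold. With all 4 libraries it was past it at a mean of at least 10 FPKM (−1.26, limma adjusted p 0.0188) and after quantile normalization (−1.44, limma adjusted p 0.0460). It was also past it with an intensity trend (limma adjusted p 0.0195). Over all genes, 670 of 3617, 574 of 8327 and 716 of 8327 were called lower in these settings, against 442 of 8327 in the main fit. Geminin missed the threshold with a pseudocount of 0.1 (−1.28, limma adjusted p 0.0847) and with the replicate number as a block (limma adjusted p 0.134). There, 154 and 0 of 8327 genes were called lower. Without RNA-seq replicate 1 or 2 the difference was −1.17 or −1.19, and without Ribo-seq replicate 1 or 2 it was −0.94 or −1.42. In these fits the lone library of an assay is assumed to vary like the pair of the other. With no centring, the geminin difference was 0.32.

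Cdc6 had the highest difference, 0.79 ± 0.77 (log2, 95% interval, n = 2 and 2), with a limma adjusted p of 0.131, at the 80.9 percentile. Its RPF over its mRNA was 6.30 and 4.49. It was therefore not called, although its RPF exceeded its mRNA, as deposited, by more than that of any other member when the libraries numbered 1 were compared.

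The helicase subunits lay between these 2 genes. Mcm3 was at 0.47 ± 0.71 (log2, 95% interval), Mcm2 at 0.37 ± 0.86, Mcm4 at 0.36 ± 0.67 and Mcm5 at 0.31 ± 0.65. Mcm7 was at −0.02 ± 0.67 and Mcm6 at −0.20 ± 0.92. Each interval held 0, and the limma adjusted p ranged from 0.262 for Mcm3 to 0.962 for Mcm7. The 2 subunits with the most mRNA thus had the lowest differences of the ring, which is the same measurement as their smaller shares in RPF. Cdt1 was at 0.18 ± 0.84, and Pcna at −0.34 ± 0.67, both with intervals that held 0.

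**Figure D4:**
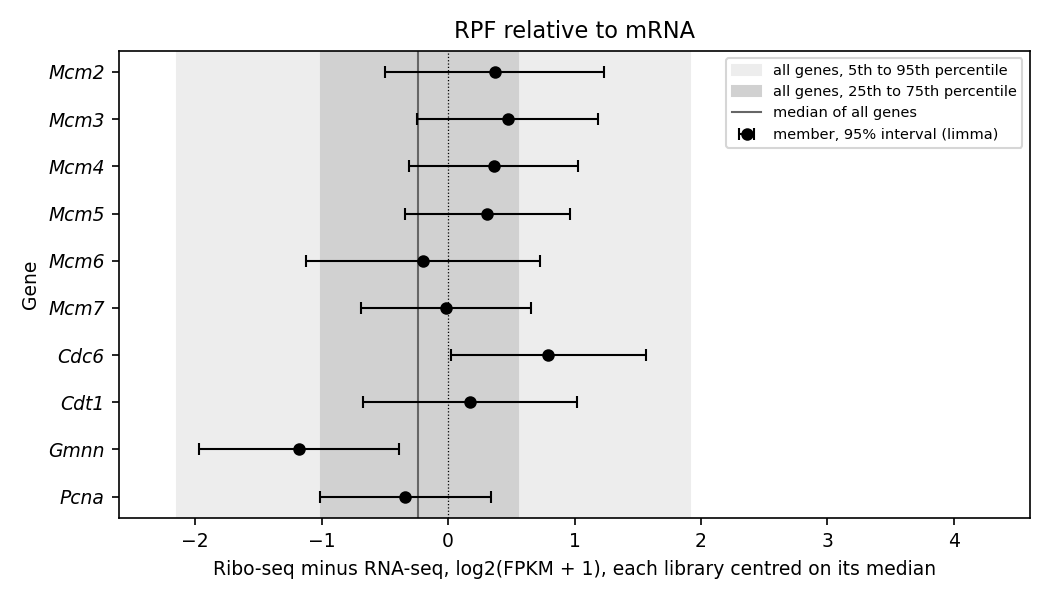
Difference in log2(FPKM + 1) between Ribo-seq and RNA-seq for the 10 genes, each library centred on its median, with 95% intervals from limma. Grey bands show where all 8327 genes lie (25th to 75th and 5th to 95th percentile) and the grey line their median of −0.24; the intervals of Gmnn and Cdc6 do not hold 0, but neither gene passed after adjustment over all genes.

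Around the members, a list of 78 other replication genes in 10 groups gave the rest of the pathway. Of these, 74 passed the level filter, 4 had higher and 5 lower RPF relative to mRNA, and their median was −0.20 (log2), against −0.24 over all genes. The 4 and 5 of 74 stood beside 6.65% and 5.31% of all genes. None of the 9 calls was kept without RNA-seq replicate 1 or without replicate 2, and 7 higher with 11 or 18 lower list genes were called without Ribo-seq replicate 1 or 2. With a pseudocount of 0.1, limma called 0 list genes higher and 1 lower. Genome copies were searched for the members only, not for these genes.

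Upstream of the ring, ORC marks origins. Its lowest member by RPF was Orc1, at 2.55 and 6.13 FPKM in mRNA and 6.44 and 6.21 FPKM in RPF, and its highest was Orc6, at 54.2 and 56.1 FPKM and at 145 and 154 FPKM. The MCM2-7 median exceeded the ORC1-6 median by 1.90 and 1.53 times in mRNA and by 2.26 and 3.01 times in RPF. Of the 6 ORC genes, 0 were called by limma (median −0.46), and 2 had an unadjusted p under 0.05, as did 36.3% of all genes. Among partners and paralogs of the ring (median −0.27), Mcmbp, which binds MCM proteins, was at 15.5 FPKM in both RNA-seq replicates and 60.6 and 40.6 FPKM in RPF. Mcm9, a paralog, was at 0.785 and 0.305 FPKM in mRNA and 4.08 and 1.29 FPKM in RPF, under the level at which it could be tested.

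Of the factors that turn the loaded ring into a helicase, Dbf4, the activator of the kinase that phosphorylates MCM proteins, was called lower (−1.68 ± 0.70, limma adjusted p 0.0371). It was at 20.2 and 17.2 FPKM in mRNA and 17.8 and 15.0 FPKM in RPF. In this group (median −0.65) Gins1 was the highest by RPF, at 129 and 186 FPKM, and Recql4 the lowest, at 1.08 and 2.99 FPKM.

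Partners of the clamp moved both ways. Of the clamp loaders (median −1.09), the RFC subunit Rfc3 was lower at −1.86 ± 0.77 (limma adjusted p 0.0372), with 37.6 and 36.2 FPKM in mRNA and 34.5 and 23.7 FPKM in RPF. Chtf8, a subunit of an alternative loader, was higher at 2.22 ± 0.87 (limma adjusted p 0.0343), from 4.23 and 3.62 FPKM in mRNA to 80.5 and 50.7 FPKM in RPF. By RPF the group ran from Atad5, at 2.83 and 0.780 FPKM, to Rfc2, at 102 and 122 FPKM. Of the PCNA partners (median 0.27), Cdkn1a, the p21 inhibitor that binds PCNA, was the highest by RPF at 162 and 82.0 FPKM, and Pclaf was listed at 0 in all 4 libraries. Of the 5 PCNA partners tested, 0 were called by limma. An unadjusted p under 0.05 was met by 3 of these 5, by 6 of the 8 clamp loaders tested and by 8 of 12 polymerase and primase genes, against 36.3% of all genes. Over the whole list it was met by 26 of 74 genes (35.1%), near that share. The other groups lay below it: 2 of 6 for ORC, 0 of 4 for partners of the ring and 1 of 10 for firing factors. It was 2 of 7 for RPA and fork proteins, 1 of 6 for flap removal and ligation, 1 of 10 for Cdt1 and geminin turnover, and 2 of 6 for dNTP supply.

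At the fork, the polymerases and primase had a median of −0.82. Pole2, an accessory subunit of DNA polymerase epsilon, was lower at −1.35 ± 0.65 (limma adjusted p 0.0452). Their RPF ran from Pole, the catalytic subunit of the same enzyme, at 5.62 and 8.67 FPKM, to Pole3, a small histone-fold subunit, at 263 and 264 FPKM. Among RPA and fork proteins (median 0.02), the fork protection factor Tipin was lower at −2.17 ± 0.68 (limma adjusted p 0.0266). In that group Rpa3 was the highest by RPF, at 517 and 507 FPKM, and Clspn the lowest, at 8.48 and 8.25 FPKM. Among genes of flap removal and ligation (median −0.27), Rnaseh2b was lower at −1.48 ± 0.66 (limma adjusted p 0.0402), and RPF ran from Dna2, at 8.76 and 7.58 FPKM, to Rnaseh2c, at 126 and 111 FPKM.

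Cdt1 and geminin are removed through ubiquitin ligases. In that group (median −0.01), Cul4b, a scaffold of the ligase that acts on Cdt1, was higher at 1.51 ± 0.79 (limma adjusted p 0.0497), with 12.6 and 13.7 FPKM in mRNA and 136 and 93.4 FPKM in RPF. Skp1a was the highest by RPF, at 1731 and 1851 FPKM, and the deubiquitinase Usp37 the lowest, at 19.6 and 14.3 FPKM. The remaining calls fell on dNTP supply (median 0.18). Dut, which removes dUTP, was higher at 1.59 ± 0.66, and Tyms, the thymidylate synthase, at 1.57 ± 0.65 (both limma adjusted p 0.0366). Dut was at 72.8 and 68.1 FPKM in mRNA and 616 and 599 FPKM in RPF, and Tyms at 36.3 and 36.5 FPKM in mRNA and 327 and 303 FPKM in RPF. By RPF the group ran from Rrm1, a subunit of ribonucleotide reductase, at 155 and 149 FPKM, to Dtymk, at 767 and 792 FPKM.

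**Figure D5:**
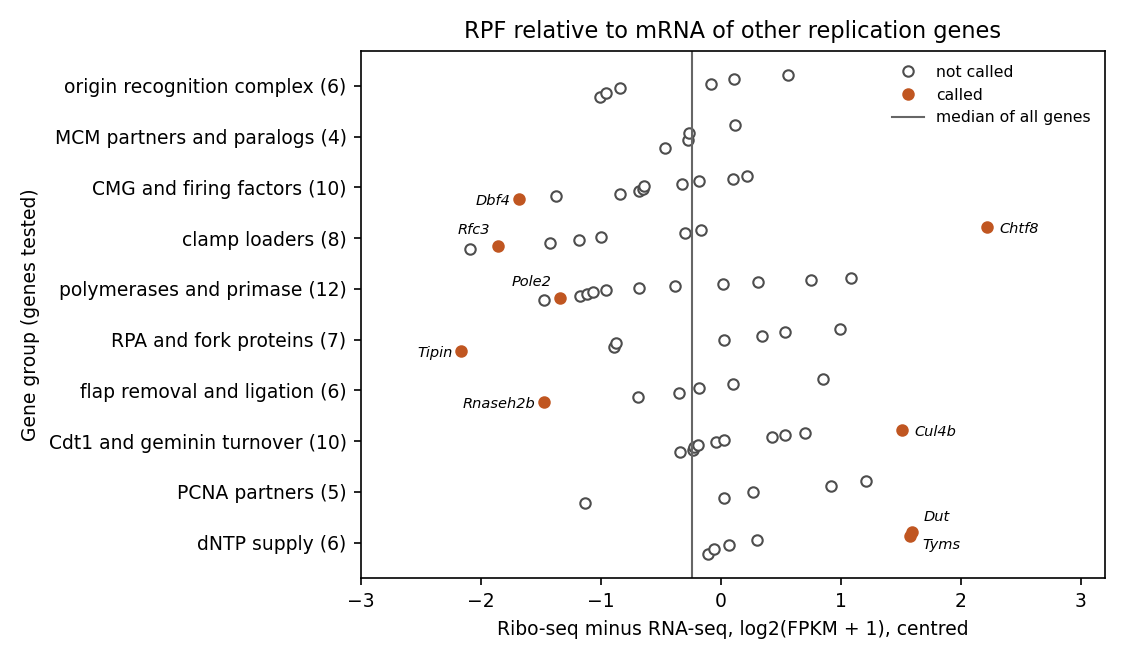
Difference in centred log2(FPKM + 1) between Ribo-seq and RNA-seq for the 74 tested genes of 10 replication groups, with the number tested in brackets. Filled points are the 9 genes called by limma, 4 higher and 5 lower, with their names, and the grey line is the median of all genes at −0.24.

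Promoters of the members are shown because most of them carry the letters of the E2F motif, the factor family known to switch on these genes before S phase. RefSeq windows on GRCm38.p6, from 250 bases before to 50 after a start, matched 8 of the 10 genes, all but Mcm4 and Gmnn. There were 9 such windows, as Mcm7 had a second one. The motifs searched were TTTCCCGC, TTTCGCGC, TTTGCCGC and TTTGGCGC on both strands, where matches may overlap. At least 1 was present in 6 of the 8 genes (Mcm3, Mcm5, Mcm6, Mcm7, Cdc6 and Cdt1), against 2.26% of 32851 windows. The first is a count of genes and the second a share of windows, and the second Mcm7 window (chr5:138171217-138171516) held no match. Matches lying wholly before the start are printed on the strand of the gene, with the matched letters in capitals.
Mcm5 (chr8:75109345-75109374, plus strand): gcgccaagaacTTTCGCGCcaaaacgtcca
Mcm6 (chr1:128359797-128359826, minus strand): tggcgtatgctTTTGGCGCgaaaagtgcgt
Mcm6 (chr1:128359734-128359763, minus strand): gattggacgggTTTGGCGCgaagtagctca
Mcm7 (chr5:138172030-138172059, minus strand): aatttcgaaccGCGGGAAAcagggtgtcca
Cdc6 (chr11:98908002-98908031, plus strand): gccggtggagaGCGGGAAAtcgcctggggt
In Mcm5 and in the first Mcm6 window a second match, on the other strand, overlapped the one in capitals. In Mcm3 and Cdt1 the matches lay after the start, and Mcm7 had a further one there. The letters CCAAT, on either strand, were present in 6 of the 8 genes (Mcm2, Mcm3, Mcm5, Mcm6, Mcm7 and Pcna), against 37.4% of windows. In Mcm2 and Pcna none of the E2F letters lay in this window. Cdc6, the lowest member by level, and Mcm6, the highest subunit, both held a match.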

How the data were processed

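The authors deposited FPKM for each library. Per their methods, reads were trimmed (Trim Galore 0.4.2, cutadapt 1.14), rRNA reads of Ribo-seq were discarded (Bowtie2 2.2.2), the rest were mapped to the mm9 transcriptome with STAR 2.5.3a at up to 20 places, and Cufflinks 2.2.1 gave FPKM over transcripts for RNA-seq and over coding sequences for Ribo-seq. The members and gene lists were chosen with earlier results of these data known. RPF and mRNA were compared with limma 3.58.1 (R 4.3.3) on log2(FPKM + 1) of all 4 libraries, with Benjamini-Hochberg adjustment over the 8327 genes tested. In simulated data for this comparison, 47.5% of 200 genes changed by a log2 of 3 among 8327 were recovered. Named genes were all members, the called genes of the list, and the highest and lowest of each group by RPF; 1 gene of the list is not reported here. Depth was estimated from low FPKM as multiples of whole fragments, with Cufflinks' default fragment lengths (mean 200, SD 80); 68.4% to 86.8% of low values fell within 0.1 of a whole number, against 20% by chance. Intervals were exact Poisson or Clopper-Pearson at 95% on fragments rounded to whole numbers. Coordinates came from GENCODE vM1 on NCBIM37. Shares, ratios and orders have no test. Python 3.11.15, scipy 1.17.1, numpy 2.4.6, pandas 2.3.3, numba 0.67.0 and matplotlib 3.10.9 served for the rest.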

Additional observations from a re-analysis of the deposited data

How the results depend on the processing

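For all genes, 554 higher and 442 lower calls became 308 and 154 with a pseudocount of 0.1. They became 5330 and 158 with no level filter, 4113 and 65 with no centring, and 861 and 716 with an intensity trend. At a mean of at least 10 FPKM, 670 of the 3617 genes tested were lower. With the replicate number as a block, 0 genes, 0 members and 0 list genes were called by limma in either direction, with 2594 genes at an unadjusted p under 0.05; same-numbered libraries did not deviate together (correlation 0.0099), so the numbers do not show a pairing. Leaving out 1 library gave 0 to 1268 higher and 0 to 1987 lower genes, 0 to 1 member lower, and 0 to 7 higher and 0 to 18 lower list genes. Without a filter or without centring, 9 members were called higher; the first centres on genes near 0 and the second keeps the shift of 1.502 between assays, and the cause of the other changes was not tested. With a filter at 10 FPKM, quantile normalization or a trend, 1 member, Gmnn, was lower. The lower calls over all genes were then 670 of 3617, 574 of 8327 and 716 of 8327. List calls were 0 higher and 1 lower with the pseudocount of 0.1, 48 and 0 without a filter, 3 and 13 at 10 FPKM, 42 and 0 without centring, and 10 lower with a trend.

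The members' median was 2.11 without a filter, 1.74 without centring, 0.091 at 10 FPKM and 0.035 after quantile normalization. The median over all genes was 0.36, 1.26, −0.28 and −0.056 in the same settings. Leaving out 1 library, the members' median was 0.050 to 0.35 and that of all genes −0.24 to −0.16. The list's median was 1.64 without a filter, 1.30 without centring and −0.31 to −0.083 leaving out 1 library. Signs turned without a filter and without centring for Mcm6 (1.67, 1.30), Mcm7 (1.85, 1.48), Gmnn (0.69, 0.32) and Pcna (1.53, 1.16), and after quantile normalization for Cdt1 (−0.028). Leaving out 1 library also turned Mcm6 (range −0.50 to 0.10), Mcm7 (−0.10 to 0.065) and Cdt1 (−0.049 to 0.40). Leaving out 1 replicate, highest over lowest MCM subunit was 2.44 to 2.62 in mRNA and 1.64 to 1.81 in RPF, and MCM2-7 over ORC1-6 was 1.53 to 1.90 and 2.26 to 3.01. Taking 1 replicate alone, 2 members changed place in the order in mRNA and 2 in RPF. Of 119 values of single members under an alternative, 90 kept their direction and side of the threshold, 13 turned sign, and 22 passed the threshold, 6 of which had turned sign; Cdc6 was not tested at 10 FPKM. Adjusted p alone and summed repeated symbols gave like counts. Depth limits RPF: Cdc6 and Gmnn rested on 37.0 to 50.3 implied footprints.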
